A study of Mus musculus with 92 samples.

Results

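The cytosolic ribosomal protein genes were the 77 protein-coding genes, of 56953 gene IDs in the tables, whose mouse symbol is Rpl or Rps followed by a number (with an a, x or a1 where the symbol has one), together with Rpsa, Rplp0, Rplp1 and Rplp2. Of these, 46 encode proteins of the large ribosomal subunit and 31 of the small subunit. Pseudogenes and the like-named paralogs were left out, and the choice used names only, no measured value. All 77 passed the filter on low counts in every fit.

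The study used mouse embryonic stem cells of the B6 line, grown in medium with serum, LIF and inhibitors of MEK and GSK3. Both alleles of Gabpa (GabpadTAG/dTAG), of Gabpb1 (Gabpb1dTAG/dTAG), or of Gabpb1 and Gabpb2 together (Gabpb1/b2dTAG/dTAG) were fused to a dTAG degron, so that the small molecule dTAG-13 brings the tagged protein to a ubiquitin ligase and it is degraded. GABPA is the ETS-family subunit of the GABP transcription factor that binds DNA, and GABPB1 and GABPB2 are its partner subunits. Control cells carried the same tags and received DMSO, and the sources used here do not say how many clones each line represents. RNA-seq of total RNA covered the 3 lines at 12 h of 500 nM dTAG-13 or DMSO, in 6 groups (12 libraries). SLAM-seq covered the GABPA line alone, with dTAG-13 for 1, 2, 4 or 12 h and DMSO for 1, 2 or 12 h, in 7 groups (14 libraries). The DMSO group listed at 2 h, which the sample titles label 2-4h, served as control of both the 2 h and the 4 h group. SLAM-seq marks newly made RNA with 4-thiouridine, here 500 µM, so that reads from it carry T-to-C conversions. Converted reads are called new RNA below. Each group had 2 libraries, named biological duplicates by the submitters, so p-values measure the spread between such libraries only.

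Ribosomal proteins join the ribosomal RNAs to form the small subunit, which decodes mRNA, and the large subunit, which forms peptide bonds. Their mRNAs are among the most abundant in growing cells and begin with a terminal oligopyrimidine (TOP) tract, through which mTORC1 and LARP1 control their translation and stability. Binding sites of ETS-family factors have been described in a share of ribosomal protein promoters, and when subunit assembly is out of balance, free RPL5 and RPL11 in complex with 5S rRNA bind the p53 ligase MDM2.

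RNA-seq libraries held 15957983 to 32091586 counts and SLAM-seq libraries 936622 to 4248509 converted reads. Levels per length are in TPM, and CPM are read counts scaled to the library total. All 8 naive embryonic stem cell markers were found at 98.0 TPM or more in every RNA-seq library. Of 8 fibroblast markers, which feeder cells would express, 6 stayed under 1 TPM in every library, 1 of these was at 0 throughout, and the 8 together summed to 2.72 to 7.33 TPM. Of those that passed the count filter, Pdgfra and Col1a1 were called higher after GABPA loss, Pdgfra at 0.48 and 0.40 CPM in DMSO and 1.98 and 1.53 after dTAG-13, and the part of such cells in the results was not tested. The degron acts on protein, so mRNA does not check it: Gabpa mRNA was higher after dTAG-13 in the GABPA line (log2 change 0.50 ± 0.08 SE, n = 2 and 2). Reads give relative levels, and fewer copies per cell cannot be told apart from fewer cells of a kind.

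Taken by length, the ribosomal protein mRNAs made up 22.4% to 27.3% of all TPM in the RNA-seq libraries. The mean over the 6 DMSO libraries ran from 368 TPM for Rps20 to 8721 TPM for Rplp1, a 23.7-fold range, with a median of 2727 TPM. The 5 highest, in order, were Rplp1, Rpl41, Rps2, Rpl23a and Rps12. Rplp1, an acidic protein of the stalk that recruits elongation factors, had 10553 and 11567 TPM in the 2 DMSO libraries of the GABPA line, 7710 and 7922 in the GABPB1 line, and 7506 and 7071 in the GABPB1 and GABPB2 line. Rpl41, a peptide of the large subunit, was lowest in the GABPA line, with 6034 and 6218 TPM in the GABPA line, 7493 and 7540 in the GABPB1 line, and 9103 and 6971 in the GABPB1 and GABPB2 line. Rps2, at the mRNA entry of the small subunit, had 9878 and 10057 TPM in the GABPA line against 5052 to 6351 TPM in the DMSO libraries of the other 2 lines. The neighbours Rps2 and Rpl41 in this order overlapped in their ranges over the 6 libraries, as did Rplp1 with both. The lowest were Rps20, Rpl5, Rpl21, Rpl35 and Rpl37. Rpl5, a carrier of 5S rRNA, had 718 to 845 TPM and Rps20 327 to 435 TPM, so that these neighbours did not overlap. TPM divides by transcript length, whose mean was 3706 bases for Rps20, 2045 for Rpl5 and 499 for Rplp1. In counts summed over the 12 RNA-seq libraries Rps20 (247165) was not the lowest and lay above Rps27 (61284). The part of annotated length in this order was not tested. The lines differ in tag, and no test was made of levels between lines.

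**Figure D1:**
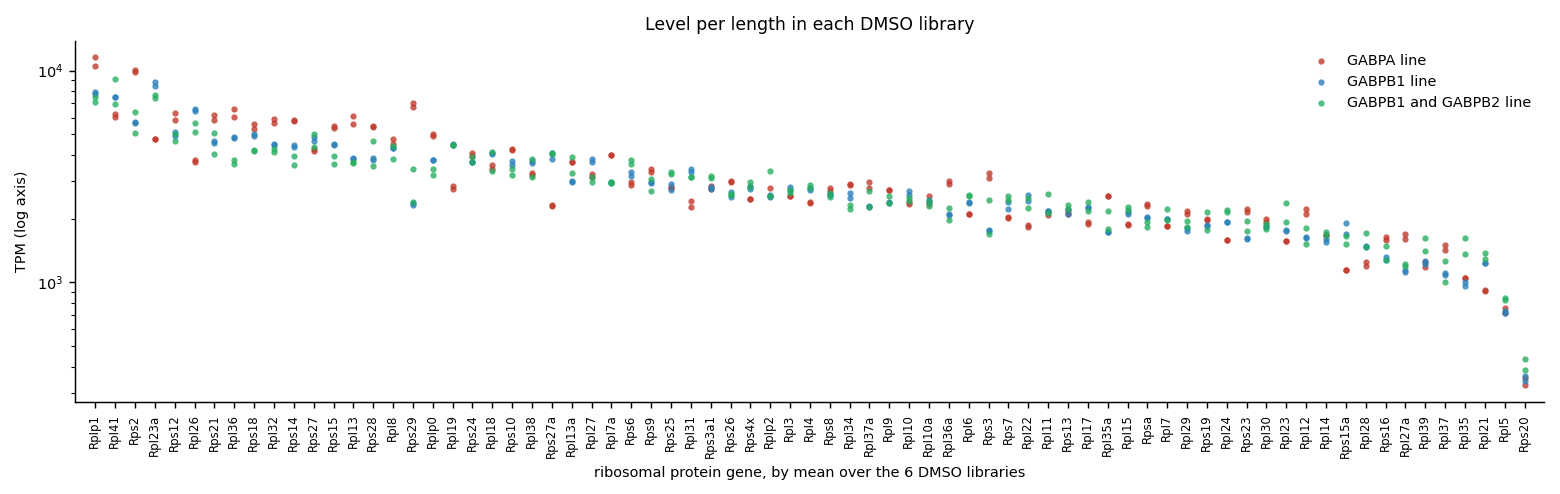
TPM of 73 of the 77 ribosomal protein genes (log axis) in each of the 6 DMSO libraries of RNA-seq, coloured by degron line and ordered by the mean over the 6. Rplp1 stands highest with a mean of 8721 TPM and Rps20 lowest with 368 TPM.

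Loss of GABPA for 12 h split the ribosomal protein mRNAs in total RNA: 41 of 77 rose, 13 fell and 23 were not called by edgeR's quasi-likelihood test at an adjusted p under 0.05. Over all 16396 genes tested, 24.6% rose and 21.9% fell. The share of members that rose, 53.2%, was above that background, and the share that fell, 16.9%, was below it. The background depends on the levels of the genes kept. With a minimum average log2 CPM of 3, 3456 of 9511 genes rose and 2569 fell, and 49 members rose and 12 fell. The part of expression level in these shares was not tested. The median log2 change was 0.18 over the members and 0.06 over all genes. Falls were fewer but reached farther, from -0.19 to -1.56, while rises ran from 0.13 to 0.69. In CPM scaled by TMM factors, which correct for library composition, the dTAG-13 and DMSO libraries did not overlap for 72 of the 77 members. With 2 libraries a group, such separation also occurs without a call. After GABPB1 loss it held for 24 members, of which 1 was called. It was not counted over all genes. The members together held 8.91% and 9.07% of all counts in DMSO and 10.1% and 9.95% after dTAG-13, which do not overlap.

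Rps27, a zinc-finger protein of the small subunit (gene at chr3:90119829-90120958, minus strand, mm39), fell most. It had 317 and 319 CPM in the DMSO libraries and 99.8 and 116 CPM after dTAG-13, a log2 change of -1.56 ± 0.10 (SE, n = 2 and 2, adjusted p = 7.53e-10 by edgeR). Both dTAG-13 libraries lay far below both controls. Rpl37, a zinc-finger protein of the large subunit (gene at chr15:5146127-5148622, plus strand, mm39), had 651 and 687 CPM in DMSO and 241 and 252 CPM after dTAG-13. Its log2 change was -1.44 ± 0.09 (adjusted p = 1.49e-09). Rps14, a protein of the small subunit platform known for its part in the 5q- syndrome of the blood, had 1564 and 1570 CPM in DMSO and 768 and 744 CPM after dTAG-13. The change was -1.05 ± 0.07 (adjusted p = 2.17e-09), and the libraries within each group lay close together. Rps21, also of the small subunit (gene at chr2:179899170-179900238, plus strand, mm39), had 682 and 657 CPM in DMSO and 394 and 375 CPM after dTAG-13, a change of -0.80 ± 0.13 (adjusted p = 0.000109).

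The other 9 genes that fell did so by less. Rpl29, a large-subunit protein, went from 782 and 808 CPM to 575 and 559 CPM (log2 change -0.49 ± 0.05). Rpl34, also of the large subunit, had 539 and 533 CPM in DMSO and 391 and 396 CPM after dTAG-13 (-0.45 ± 0.06). Rpl27 had 929 and 968 CPM in DMSO and 720 and 704 CPM after dTAG-13 (-0.41 ± 0.07). None of these groups overlapped. Rps18, a protein of the small subunit head (gene at chr17:34170973-34174975, minus strand, mm39), had 1275 and 1346 CPM in DMSO and 1047 and 1019 CPM after dTAG-13 (-0.34 ± 0.06). Its annotated interval overlaps Vps52 on the other strand, which was also lower (-1.45 ± 0.08), and the sources used here do not give how the counting treated strands. The interval of Rpl35, a protein at the rim of the exit tunnel with a change of -0.27 ± 0.07, overlaps Arpc5l, which was lower by more (-1.61 ± 0.09). The interval of Rps14 overlaps Ndst1 on the other strand, which was higher (0.73 ± 0.07). The part of these overlapping genes in the counts was not tested. Rpl6 (-0.24), Rpl3 (-0.23), which reaches towards the peptidyl transferase centre, and Rps13 (-0.19) fell as well.

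**Figure D2:**
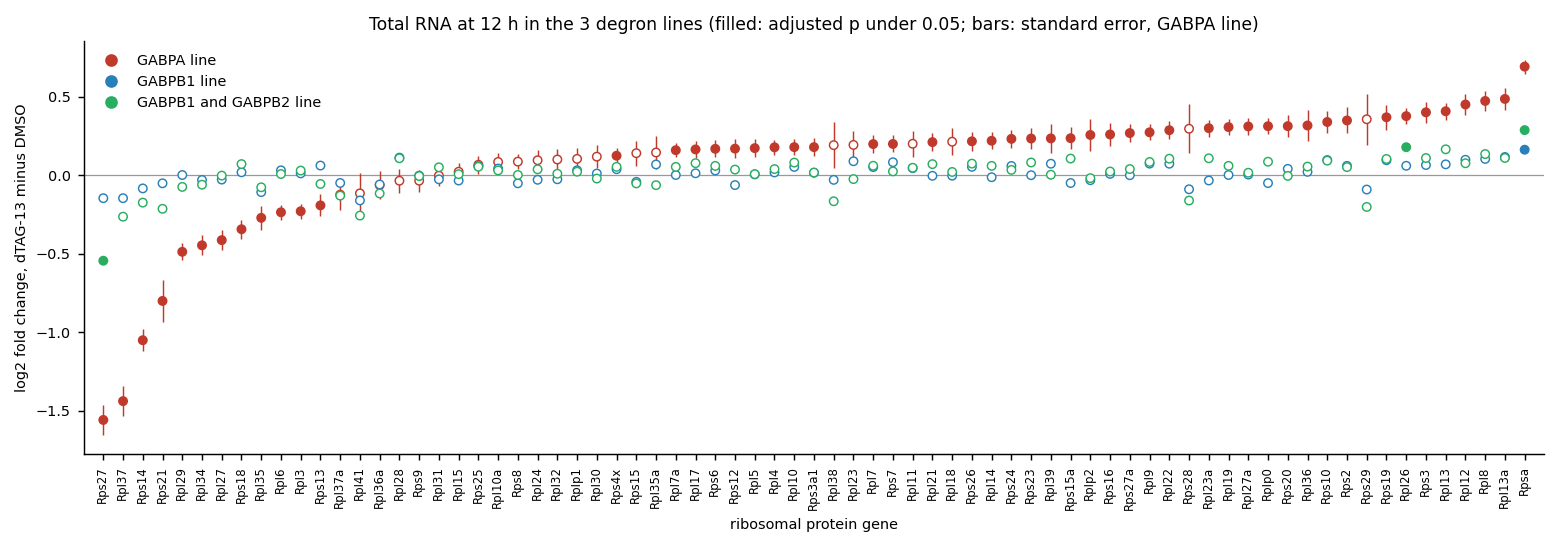
Log2 fold change of total RNA (dTAG-13 minus DMSO, 12 h, 2 libraries a group) for 73 of the 77 ribosomal protein genes in the 3 degron lines, ordered by the GABPA line. Filled points have an adjusted p under 0.05 and bars are standard errors of the GABPA line; of the genes shown 12 fell and 39 rose in it, down to -1.56 for Rps27 and up to 0.69 for Rpsa.

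Rpsa, the small-subunit protein also known as the laminin receptor (gene at chr9:119956755-119961435, plus strand, mm39), rose most. It had 3016 and 3081 CPM in DMSO and 4971 and 4890 CPM after dTAG-13, a log2 change of 0.69 ± 0.05 (SE, n = 2 and 2, adjusted p = 1.56e-09 by edgeR). The groups did not overlap. Rpl13a, a large-subunit protein, had 2299 and 2312 CPM against 3321 and 3144 CPM (0.49 ± 0.07). Rpl8, a core protein of the large subunit, had 2098 and 2230 CPM against 3026 and 2988 CPM (0.47 ± 0.07). Rpl12, at the base of the stalk, had 1622 and 1712 CPM against 2310 and 2251 CPM (0.45 ± 0.07). In all 3 the dTAG-13 libraries lay above both controls. Rpl13 (0.41 ± 0.05), Rps3 at the mRNA entry (0.40 ± 0.07) and Rpl26 near the tunnel exit (0.38 ± 0.05) came next, and their groups did not overlap either.

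By place in the ribosome, 23 of 46 large-subunit genes rose and 7 fell, and 18 of 31 small-subunit genes rose and 6 fell. Of 14 proteins of the small subunit head, 8 rose and 2 fell, Rps18 among them. Of 4 stalk genes, 3 rose: Rplp0 (0.31 ± 0.05), which holds the stalk, Rplp2 (0.26 ± 0.10) and Rpl12, while Rplp1 had a change of 0.11 ± 0.07 (adjusted p = 0.257). Rplp2 was not called with DESeq2 (adjusted p = 0.131), with library size only, or without any 1 of the 4 libraries (adjusted p = 0.0684 to 0.246). Of the pair that carries 5S rRNA, Rpl5 rose (0.17 ± 0.06, adjusted p = 0.0178) and Rpl11 had a change of 0.20 ± 0.08 (adjusted p = 0.0559). Rpl5 was not called without DMSO library 2 (adjusted p = 0.164), without dTAG-13 library 2 (0.201) or in a fit of these 4 libraries alone (0.0845). Rps6, the substrate of the S6 kinases, rose by 0.17 ± 0.05 (adjusted p = 0.0177) but was not called without DMSO library 1 (0.122), without dTAG-13 library 2 (0.123) or with these 4 libraries alone (0.0614). Of 10 proteins at the exit tunnel, 7 rose and 1, Rpl35, fell. Of 33 universally conserved proteins, which bacteria and archaea also have, 21 rose and 5 fell, against 20 and 8 of the other 44. No test was made between these groups.

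**Figure D3:**
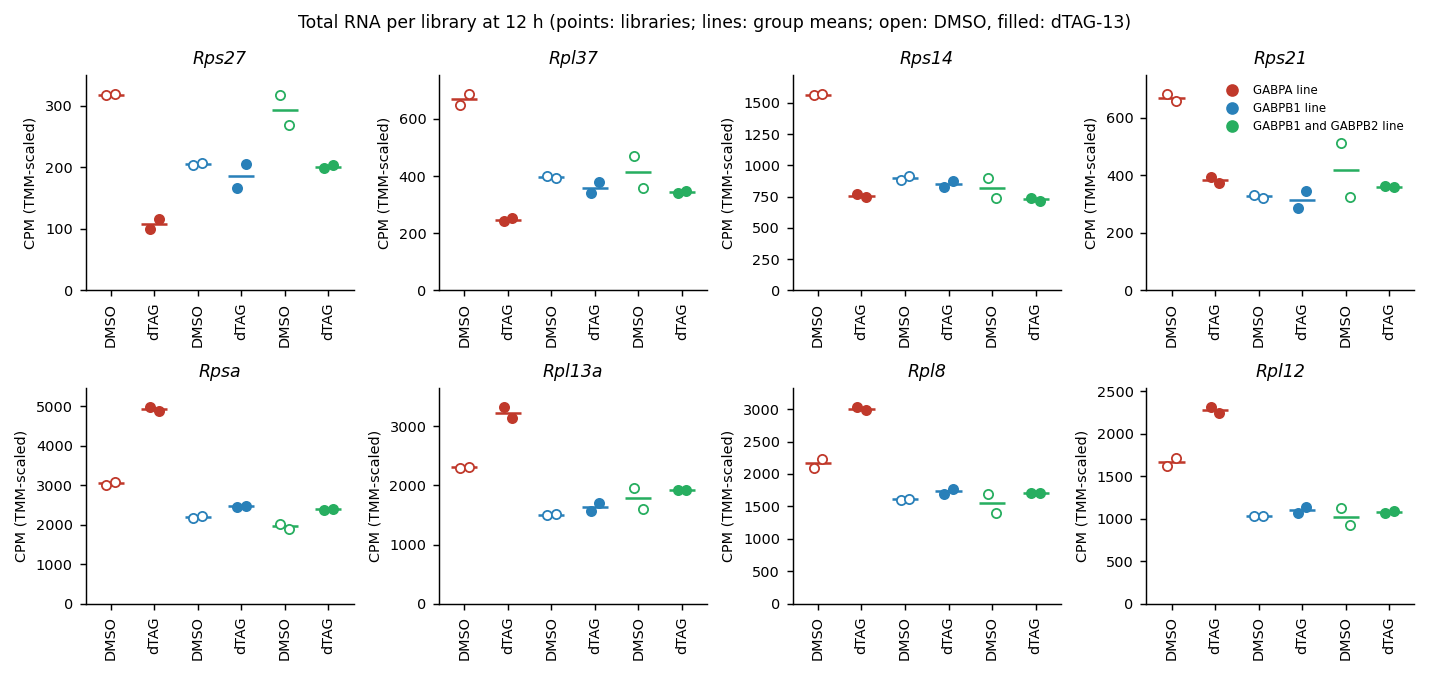
TMM-scaled CPM of total RNA in each of the 12 RNA-seq libraries for the 4 genes that fell most and 4 of those that rose most after GABPA loss, each axis from 0; open points are DMSO and filled points dTAG-13, coloured by line, with lines at group means. In the GABPA line Rps27 went from 317 and 319 CPM to 99.8 and 116 CPM and Rpsa from 3016 and 3081 to 4971 and 4890.

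Promoter sequence is shown for genes at both ends of this order, because GABPA binds DNA with a GGAA core, most often within CCGGAAG. RefSeq's promoters (build GRCm38.p6, 250 bases before to 50 after each start) held 57 of the 77 genes, and those of Rps14, Rpl29 and Rpl3, among others, were not used here. The lines below give 200 bases before the start and the first 20 transcribed bases, 5′ to 3′ on the gene's strand, with CCGGAAG in capitals, or CTTCCGG where the letters lie on the other strand. The first 5 genes fell and the last 2 rose. The windows are chr3:90213629-90213848 (minus strand) for Rps27, chr15:5116413-5116632 (plus) for Rpl37, chr2:180257179-180257398 (plus) for Rps21, chr17:33955646-33955865 (minus) for Rps18, chr2:39005112-39005331 (minus) for Rpl35, chr9:120127566-120127785 (plus) for Rpsa and chr2:32961512-32961731 (plus) for Rpl12.
Rps27: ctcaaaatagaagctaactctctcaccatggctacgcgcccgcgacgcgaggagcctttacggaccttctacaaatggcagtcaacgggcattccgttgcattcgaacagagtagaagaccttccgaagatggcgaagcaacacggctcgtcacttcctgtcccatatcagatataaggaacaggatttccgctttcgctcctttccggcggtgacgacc
Rpl37: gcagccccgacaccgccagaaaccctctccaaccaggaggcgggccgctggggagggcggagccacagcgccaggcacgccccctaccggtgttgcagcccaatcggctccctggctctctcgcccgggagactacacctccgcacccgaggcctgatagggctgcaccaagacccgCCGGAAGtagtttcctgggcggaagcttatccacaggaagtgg
Rps21: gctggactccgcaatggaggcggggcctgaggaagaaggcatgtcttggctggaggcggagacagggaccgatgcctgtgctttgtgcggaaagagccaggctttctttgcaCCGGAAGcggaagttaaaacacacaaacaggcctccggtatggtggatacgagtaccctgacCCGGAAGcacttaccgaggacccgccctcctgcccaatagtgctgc
Rps18: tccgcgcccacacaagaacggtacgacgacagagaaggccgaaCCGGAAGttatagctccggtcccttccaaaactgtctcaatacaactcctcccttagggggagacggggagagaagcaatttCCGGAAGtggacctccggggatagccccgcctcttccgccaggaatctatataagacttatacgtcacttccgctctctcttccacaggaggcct
Rpl35: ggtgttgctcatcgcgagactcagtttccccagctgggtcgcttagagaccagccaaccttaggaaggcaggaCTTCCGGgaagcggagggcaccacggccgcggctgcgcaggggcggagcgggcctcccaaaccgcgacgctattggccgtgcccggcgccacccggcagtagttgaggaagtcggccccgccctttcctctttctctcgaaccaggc
Rpsa: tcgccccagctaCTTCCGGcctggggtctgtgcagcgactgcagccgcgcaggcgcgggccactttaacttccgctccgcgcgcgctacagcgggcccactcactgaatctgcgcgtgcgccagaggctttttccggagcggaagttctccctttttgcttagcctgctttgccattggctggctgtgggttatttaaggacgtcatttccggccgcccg
Rpl12: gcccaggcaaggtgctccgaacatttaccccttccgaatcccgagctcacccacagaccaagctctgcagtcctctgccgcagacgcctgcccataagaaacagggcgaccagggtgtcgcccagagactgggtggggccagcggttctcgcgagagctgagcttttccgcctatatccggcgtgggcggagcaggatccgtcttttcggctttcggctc

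CCGGAAG began 23 bases before the start in Rpl37, 88 and 26 bases before it in Rps21, and 157 and 75 bases before it in Rps18. In Rpl35 it lay on the other strand 127 bases before the start, and in Rpsa on the other strand 188 bases before it. The windows of Rps27 and Rpl12 hold none on either strand. In the 300 bases, 24 of 57 members (42.1%) held CCGGAAG on either strand, against 9.93% of 27025 genes, tested here or not. The share was larger among genes tested in total RNA, of which 2145 held it and 9177 did not. Among members it was present in 6 of 9 that fell, 12 of 31 that rose and 6 of 17 that were not called. The median log2 change was 0.19 for members with these letters and 0.18 for those without, whereas over all genes tested it was -0.31 with them and 0.12 without. Of all tested genes with CCGGAAG, 50.6% fell. The longer CCGGAAGT, which includes CCGGAAG, was held by 11 members (19.3%, against 4.31% of all genes). Of the tested genes, 960 held it and 10362 did not. The members with CCGGAAGT had a median of 0.07, against 0.19 for the rest. The shorter GGAAGT, chosen after seeing the data and present in part within CCGGAAGT, was held by 29 members (50.9%, against 26.6% of all genes): 8 of 9 that fell, 10 of 31 that rose and 11 of 17 not called. Rps27 is among those 8. Of the tested genes, 3444 held GGAAGT and 7878 did not.

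Other promoter letters were searched on both strands as well. AAGATGGCG, the core of the YY1 motif, was held by 3 members (5.26%), Rps27, Rpl13a and Rpl35a, against 1.64% of all genes. Of the tested genes, 377 held it and 10945 did not. TATAAA was held by 6 members (10.5%), against 15.7% of all genes, tested here or not. The share was smaller among tested genes, of which 989 held TATAAA and 10333 did not. None of the 9 members that fell and are in the promoter set held it. A start at C followed by at least 4 pyrimidines was read on the gene's strand only. It was found in 13 members (22.8%) and 3.01% of all genes, and depends on the exact annotated start. Such a start was found in 349 tested genes and not in 10973. These matches describe letters in RefSeq's windows, not binding.

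Loss of GABPB1 for 12 h left the ribosomal protein mRNAs close to their controls. Of 77, 1 rose and 0 fell by edgeR (over all genes, 1.28% rose and 5.46% fell), and the same 1 gene had an unadjusted p under 0.05. That gene was Rpsa, with 2176 and 2228 CPM in DMSO and 2447 and 2486 CPM after dTAG-13 (0.16 ± 0.05, adjusted p = 0.0375). Rpsa was not called without any 1 of the 4 libraries (adjusted p = 0.121 to 0.239). The members' median log2 change was 0.01, within a range from -0.16 to 0.16. Rps27 had 204 and 208 CPM in DMSO and 167 and 205 CPM after dTAG-13, groups that overlap (-0.15 ± 0.09, adjusted p = 0.429). A fit of these 4 libraries alone called 6 members higher and 2 lower. Over all 15696 genes tested in that fit, 1240 were higher and 1947 lower.

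Loss of GABPB1 and GABPB2 together for 12 h moved 4 members: 3 rose (3.53% of all genes did) and 1 fell (9.26% of all genes did). Rps27 had 318 and 269 CPM in DMSO and 199 and 203 CPM after dTAG-13, a change of -0.54 ± 0.09 (adjusted p = 0.000563). Rpsa had 2017 and 1896 CPM in DMSO and 2381 and 2399 CPM after dTAG-13 (0.29 ± 0.05, adjusted p = 0.000261). Neither pair of groups overlapped, and both calls held in each alternative fit. Rpl26 (0.18 ± 0.05) also rose, but was not called without dTAG-13 library 1 (adjusted p = 0.0563), without dTAG-13 library 2 (0.22) or with these 4 libraries alone (0.147). The 4 genes are among those that moved the same way in the GABPA line. Rpl37 had 470 and 357 CPM in DMSO against 340 and 349 CPM (-0.26 ± 0.09, adjusted p = 0.0733), and its groups did not overlap. The 2 DMSO libraries of this line differed most among the RNA-seq pairs: members held 7.60% of counts in library 1 and 6.70% in library 2, and 7.42% and 7.49% after dTAG-13. Without DMSO library 1, 19 members were called higher and 1 lower, and without DMSO library 2, 3 higher and 15 lower. Without dTAG-13 library 2, 1 was called higher and 1 lower.

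The lines also differed before dTAG-13, and how the levels after GABPA loss compare with the other lines turns with the unit. In DMSO, Rps14 had 1564 and 1570 CPM in the GABPA line, 885 and 913 CPM in the GABPB1 line, and 900 and 742 CPM in the GABPB1 and GABPB2 line. Rps21 had 682 and 657 CPM in DMSO of the GABPA line, 332 and 321 CPM in the GABPB1 line, and 511 and 325 CPM in the GABPB1 and GABPB2 line. After GABPA loss both genes (768 and 744 CPM for Rps14, 394 and 375 CPM for Rps21) lay within the range of the DMSO libraries of the other 2 lines in CPM. In TPM they lay below it: Rps14 had 2736 and 2665 TPM against 3595 to 4462 TPM, and Rps21 3419 and 3329 TPM against 4034 to 5049 TPM. Rpl37 went below those DMSO libraries in both units (357 to 470 CPM, and 1006 to 1261 TPM against 520 and 542 TPM). Rpsa had 2289 and 2339 TPM in DMSO of the GABPA line and 1825 to 2031 TPM in DMSO of the other 2 lines. The part of these starting levels in the differences between responses was not tested.

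The responses of the lines were compared directly in the same fit. Between the GABPA and the GABPB1 line, 17 members responded with a higher and 10 with a lower change in the GABPA line (12.5% and 13.3% of all genes). With library size alone these were 12 and 12. Rps27 differed by -1.41 ± 0.13 and Rpl37 by -1.29 ± 0.13 between these responses, and Rpsa by 0.53 ± 0.06. Leaving out DMSO library 2 or dTAG-13 library 1 of the GABPB1 line left 4 members with a higher response, DMSO library 1 left 9 and dTAG-13 library 2 left 11, while those with a lower response numbered 10 to 12. Between the GABPA and the GABPB1 and GABPB2 line, 11 responded higher and 10 lower (10.1% and 10.7% of all genes), and with library size alone 6 and 10. Rpl37 differed by -1.18 ± 0.13, Rps27 by -1.02 ± 0.13, Rps14 by -0.88 ± 0.10 and Rpsa by 0.41 ± 0.06. The number with a higher response fell to 3 without DMSO library 1 of the GABPB1 and GABPB2 line, to 1 and 2 without its dTAG-13 libraries and to 4 without DMSO library 1 of the GABPA line. It reached 28 without DMSO library 2 of the GABPB1 and GABPB2 line, and the number with a lower response then was 10, within a range of 8 to 15. Rpsa and 8 genes with a lower response (Rpl27, Rpl29, Rpl3, Rpl34, Rpl37, Rps14, Rps18 and Rps27) were called in each fit tried. Across the 77 genes, the changes in the GABPA line and in the GABPB1 and GABPB2 line, which share no library, had a Pearson r of 0.75, and of 0.67 without Rps27, as a description of genes that are not independent. No r over all genes is given here.

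New RNA was measured by converted reads in SLAM-seq of the GABPA line. The members held 2.01% to 3.57% of all SLAM-seq reads, and reads given to pseudogenes named after members equalled 48.2% to 69.9% of the members' own, against 0.44% to 1.16% in RNA-seq. The part of such reads in the results was tested only by adding them to the members. The converted share was low for the members: at 12 h of DMSO it was 8.22% and 7.79% of their reads, and 14.3% and 14.2% of reads of other genes. At 1 h of DMSO it was 2.69% and 3.51% against 5.51% and 6.13%. Single members differed widely: at 1 h of DMSO, Rps12 had 24.8% and 39.1% of its reads converted, Rps27 27.2% and 30.1%, and Rps14 1.78% and 1.84%.

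At 1 h after dTAG-13, 2 members had fallen and 0 had risen in new RNA (1.72% of all 15887 genes fell and 0.0567% rose), and 12 had an unadjusted p under 0.05. Rps27 had 73 and 104 converted reads in DMSO and 12 and 25 after dTAG-13, which is 78.7 and 92.7 CPM against 10.9 and 26.3 CPM. Its change was -2.23 ± 0.32 (adjusted p = 0.000162 by edgeR), the groups did not overlap, and the call held in each alternative fit. Its converted share went from 27.2% and 30.1% to 6.22% and 9.84%. Rps14 had 340 and 264 CPM in DMSO and 193 and 177 CPM after dTAG-13 (-0.70 ± 0.18, adjusted p = 0.0346). Rps14 was not called without DMSO library 1 (adjusted p = 0.394) or either dTAG-13 library (0.216 and 0.27), which left Rps27 alone.

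At 2 h, 1 member had fallen and 0 had risen (3.21% and 0.145% of all genes), with 12 at an unadjusted p under 0.05. Rps14 had 375 and 445 CPM in the shared DMSO libraries and 289 and 252 CPM after 2 h (-0.60 ± 0.16, adjusted p = 0.0414). It was not called without DMSO library 2 (0.378), without either dTAG-13 library (0.0735 and 0.288) or with DESeq2 (0.0558), whereas leaving out DMSO library 1 gave 1 member higher and 1 lower. Rps27 had 50.1 and 63.7 CPM in DMSO and 38.6 and 35.7 CPM at 2 h, a change of -0.61 ± 0.26 (adjusted p = 0.3). At 4 h, 3 members had fallen and 0 had risen (3.91% and 0.113% of all genes). Rps27 was at 22.7 and 22.7 CPM (-1.33 ± 0.29), Rps18 at 80.9 and 92.2 CPM against 145 and 162 CPM (-0.82 ± 0.18) and Rps14 at 241 and 255 CPM (-0.72 ± 0.17). No groups overlapped, but with dTAG-13 library 1 left out none of the 3 was called (adjusted p = 0.0713 to 0.118). Without dTAG-13 library 2, or without DMSO library 2, 1 was.

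At 12 h, 7 members had risen and 12 had fallen in new RNA (12.3% and 18.3% of all genes), with a median of 0.10 over the members and 0.04 over all genes. Scaling by library size alone raised the median of all genes to 0.18 and gave 18 higher and 8 lower. The 7 that rose and 8 of the 12 that fell were called under each of 4 settings (TMM, library size alone, DESeq2's size factors and a minimum average log2 CPM of 3), while the other 4, among them Rps3, Rps4x and Rps13, were not. Rps27 again fell most: the DMSO libraries had 61.9 and 42.4 CPM and the dTAG-13 libraries 10.3 and 10.2 CPM (-2.33 ± 0.29, adjusted p = 1.14e-06). Rps18 had 208 and 181 CPM in DMSO against 68.1 and 70.3 CPM (-1.49 ± 0.17, adjusted p = 2.55e-07), and Rpl37 from 88.3 and 79.8 CPM to 42.8 and 47.1 CPM (-0.91 ± 0.19). In all 3 both dTAG-13 libraries lay below both controls. Rps14 had 378 and 306 CPM in DMSO and 208 and 181 CPM after dTAG-13 (-0.81 ± 0.16). Rpl35 (-0.77 ± 0.23), Rps13 (-0.72 ± 0.25), Rpl29 (-0.70 ± 0.21), Rpl4, which lines the exit tunnel (-0.69 ± 0.14), and Rpl6 (-0.60 ± 0.18) also fell. Vps52, whose interval overlaps Rps18, was lower in new RNA as well (-1.24 ± 0.47, adjusted p = 0.0464 by edgeR). Arpc5l, which overlaps Rpl35, was lower by more than Rpl35 (-2.13 ± 0.18). Ndst1, which overlaps Rps14, had a change of 0.97 ± 0.37 (adjusted p = 0.051). The part of these overlapping genes in the converted reads was not tested. Without DMSO library 1 or dTAG-13 library 2 the number of members that fell was 5, and without DMSO library 2 it was 7. Rpl37, Rpl4, Rps14, Rps18 and Rps27 were called in each fit tried.

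**Figure D4:**
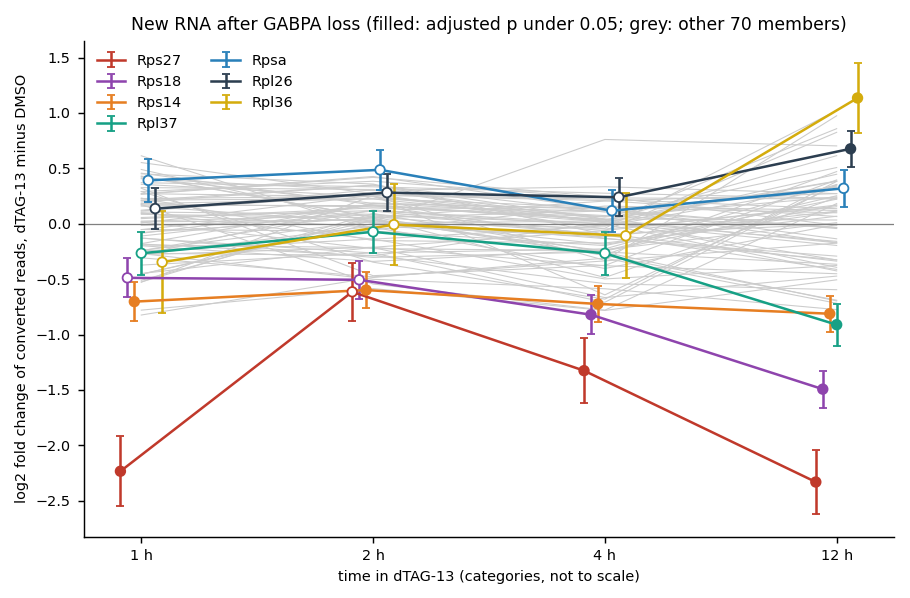
Log2 fold change of converted reads (dTAG-13 minus DMSO) at 1, 2, 4 and 12 h in the GABPA line for 7 named genes, with standard errors (2 libraries a group) and filled points at an adjusted p under 0.05; grey lines are the other 70 members and the time axis shows categories. Rps27 lies lowest at 1, 4 and 12 h, at -2.23, -1.33 and -2.33.

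Among the risers in new RNA at 12 h, Rpl36 had 43.0 and 37.9 CPM in DMSO and 91.7 and 85.6 CPM after dTAG-13 (1.14 ± 0.31). Rpl17, at the exit tunnel, had 29.1 and 23.5 CPM against 61.4 and 43.7 CPM (1.02 ± 0.24). Rpl10a had 67.5 and 82.5 CPM against 160 and 133 CPM (0.97 ± 0.21), and 23.0% of its SLAM-seq reads mapped to several places. None of these groups overlapped. Rpl9 (0.86 ± 0.18), Rpl10, which is needed for subunit joining (0.83 ± 0.25), Rpl26 (0.68 ± 0.16) and Rps19, the protein most often mutated in Diamond-Blackfan anaemia (0.51 ± 0.18), also rose. With reads of same-named pseudogenes added, 4 of the 7 lost their call: Rpl36 (adjusted p = 0.118), Rpl17 (0.0668), Rpl9 (0.128) and Rps19 (0.11). Without DMSO library 2, 4 were called higher. Rpl10a and Rpl26 were called in each fit.

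The response at 12 h differed from that at 1 h for 1 member upward and 2 downward (2.14% and 4.7% of all genes). With library size alone, which moved the median of all genes from 0.00 to 0.10, it was 1 and 1. Rpl9 rose by 1.04 ± 0.27 more at 12 h (adjusted p = 0.0209), which was not called with pseudogene reads added (0.673). Rps18 was lower by -1.005 ± 0.24 (adjusted p = 0.0121) and Rpl4 by -0.68 ± 0.20 (0.0395). None of the 3 was called in each fit: without DMSO library 2 of 1 h, 0 members were called in either direction. Without DMSO library 2 of 12 h, 0 were higher and 1 lower, and without DMSO library 1 of 12 h, 1 was higher and 0 lower. Leaving out dTAG-13 library 1 of 1 h gave 2 and 0, and DMSO library 1 of 1 h 2 and 1. The other 3 libraries of 12 h and 1 h left out in turn gave 1 higher and 1 lower each. For Rps27 the responses at 1 h and 12 h differed by -0.10 ± 0.43 (adjusted p = 0.926), a standard error wide enough for a difference in either direction.

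Total RNA and new RNA at 12 h came from different libraries and moved together in part. Of the 13 genes that fell in total RNA, 8 also fell in new RNA (61.5% of the 13 and 66.7% of the 12), namely Rpl29, Rpl35, Rpl37, Rpl6, Rps13, Rps14, Rps18 and Rps27. Of the 41 that rose in total RNA, 6 also rose in new RNA (14.6% of the 41 and 85.7% of the 7). Rpl4 and Rps3 and Rps4x went apart, rising in total RNA (0.18, 0.40 and 0.13) and falling in new RNA (-0.69, -0.41 and -0.43). Of these, Rpl4 alone was called in each fit tried of both measures: Rps4x was not called in each fit of total RNA, and Rps3 and Rps4x were not in each fit of new RNA. Over the 77 genes Pearson's r was 0.67, and 0.56 without Rps27, with no test since genes share libraries and depth. Of all genes, 18.3% fell and 12.3% rose in new RNA at 12 h. Neither the overlaps nor r are given here over all genes, so they are no trait of the members. The 13 that fell in total RNA had a median change in new RNA of -0.27 at 1 h, -0.34 at 2 h, -0.50 at 4 h and -0.70 at 12 h. For the 41 that rose, the same medians were 0.16, 0.14, 0.02 and 0.22. The 2 h and 4 h medians share their controls.

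**Figure D5:**
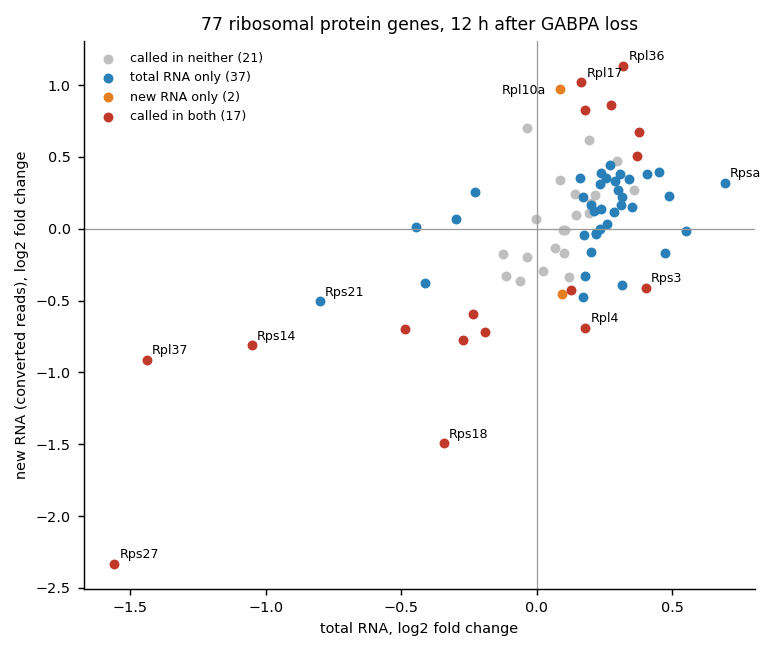
Log2 fold change at 12 h after GABPA loss in total RNA (RNA-seq, horizontal) and in new RNA (converted SLAM-seq reads, vertical) for the 77 ribosomal protein genes, coloured by the test that called them. Rps27 lies lowest on both axes at -1.56 and -2.33, and 17 genes were called by both tests.

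All SLAM-seq reads at 12 h, converted or not, gave 3 members higher and 20 lower (29.8% and 27.6% of 26957 genes), but this split turned with the scaling: library size alone raised the median of all genes from 0.14 to 0.51 and gave 29 higher and 7 lower, and a minimum average log2 CPM of 3 gave 24 and 7. Only 7 genes were called lower under each of the same 4 settings, Rpl15, Rpl27, Rpl4, Rps14, Rps18, Rps27 and Rps6. In the TMM fit the median over the members was -0.09. Of the 41 genes that rose in total RNA, 2 were called higher in that fit and 22 had a change above 0 (median 0.04). Of the 13 that fell in total RNA, 11 were called lower and 13 had a change below 0 (median -0.66). These values hold for the TMM fit alone. Rps27 had 26.5 and 18.5 CPM in DMSO and 5.52 and 6.09 CPM after dTAG-13 (-1.96 ± 0.20, adjusted p = 1.64e-06), and Rps14 814 and 771 CPM against 326 and 364 CPM (-1.20 ± 0.15). Rpsa, Rpl9 and Rpl10a were the 3 higher, and without DMSO library 1, DMSO library 2 or dTAG-13 library 1 only 1 was. Without DMSO library 1, 13 were called lower, and without dTAG-13 library 2, 5 were called higher.

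Genes next to the ribosomal proteins in the pathway were counted from lists chosen with earlier results of these data known. Of 10 chaperones and loaders of ribosomal proteins, 6 fell and 0 rose in total RNA after GABPA loss, with a median of -0.44 (21.9% of all genes fell and 24.6% rose). Rpf2, which with Rrs1 brings the 5S RNP to the large subunit, had 50.9 and 44.3 CPM in DMSO and 6.38 and 8.02 CPM after dTAG-13 (-2.72 ± 0.12). Rrs1 fell by 1.20 on the log2 scale, Ltv1, an assembly factor of the small subunit head, by 1.29, and Pdcd2, which accompanies Rps2, by 1.29. In new RNA, 2 of the 10 fell at 1 h, 2 at 2 h, 4 at 4 h and 7 at 12 h, and 0 rose at any of these times. Over all genes, 1.72%, 3.21%, 3.91% and 18.3% fell at these times. Rpf2 fell at each time (-1.53 ± 0.22 at 1 h and -3.19 ± 0.20 at 12 h). After loss of GABPB1, when 5.46% of all genes fell, 2 of 10 fell, Rpf2 (-0.64 ± 0.09) and Pdcd2 (-0.38 ± 0.09). After loss of GABPB1 and GABPB2, when 9.26% of all genes fell, 4 fell, again with Rpf2 lowest (-1.31 ± 0.10).

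Of 14 other mRNAs with a TOP tract, 8 rose and 1 fell after GABPA loss in total RNA, with a median of 0.21 beside 0.18 for the ribosomal proteins (24.6% of all genes rose and 21.9% fell). In new RNA at 12 h, 1 of the 14 was higher and 2 were lower, when 12.3% and 18.3% of all genes were. Their median was -0.16 beside 0.10 for the ribosomal proteins. All SLAM-seq reads gave 1 higher and 7 lower (29.8% and 27.6% of all genes), with a median of -0.35. For the ribosomal proteins the split in that measure turned with the scaling. Eef2, the elongation factor of translocation, rose by 0.55 ± 0.05, Pabpc1, which binds poly(A) tails, by 0.50 ± 0.04 and Eef1a1, which delivers aminoacyl-tRNA, by 0.41 ± 0.04. Eif3h, a subunit of initiation factor eIF3, was the 1 that fell (-0.65 ± 0.06). Of 15 regulators of TOP mRNA translation, 4 rose and 4 fell, which is 26.7% each and near the shares of all genes. The mTORC1 inhibitors Ddit4 (3.20 ± 0.12) and Sesn2 (1.52 ± 0.07) rose, and Tsc2, a further inhibitor (-0.65 ± 0.07), and Larp4 (-0.54 ± 0.07) fell, while Larp1 had a change of -0.11 ± 0.06 (adjusted p = 0.143).

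Of 4 genes of the 5S RNP and p53 axis, 3 rose in total RNA after GABPA loss, when 24.6% of all genes did: Mdm2, with 130 and 111 CPM in DMSO and 502 and 432 CPM after dTAG-13 (1.96 ± 0.08), Cdkn1a, an inhibitor of the cell cycle (1.19 ± 0.07), and Mdm4 (0.72 ± 0.08). Trp53 itself had a change of -0.03 ± 0.05 (adjusted p = 0.668). In new RNA 0 of the 4 were called by edgeR at 1, 2 or 4 h, with 0 at an unadjusted p under 0.05. At 12 h Mdm2 (1.07 ± 0.15) and Mdm4 (0.98 ± 0.18) rose, Trp53 fell (-0.50 ± 0.18) and Cdkn1a was not called. Of 8 ribosomal protein paralogs measured in total RNA, 2 rose and 4 fell (24.6% and 21.9% of all genes). Rps27l, the paralog of Rps27, had 157 and 139 CPM in DMSO and 200 and 214 CPM after dTAG-13 (0.49 ± 0.08), opposite in direction to Rps27, and Rpl10l rose as well (0.70 ± 0.08). Rpl22l1 (-0.45 ± 0.10), Rpl36al (-0.33 ± 0.07), Rpl7l1 (-0.23 ± 0.06) and Rpl3l, at under 2 CPM, fell. In new RNA at 12 h Rps27l rose by 0.77 ± 0.16. Of the 3 cytosolic ribosomal proteins that the symbol rule leaves out, Fau and Rack1 among them, 0 were called in total RNA, with 0 at an unadjusted p under 0.05, and Rack1 fell in new RNA at 12 h (-0.89 ± 0.14).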

How the data were processed

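RNA-seq tables held RSEM estimates per gene on mm39: expected counts and TPM as the authors deposited them, per the file headers. The submitters' processing notes name Trim Galore 0.6.7, STAR 2.7.11a, RSEM 1.3.1 and slamdunk 0.4.3. SLAM-seq tables held slamdunk counts of all reads and of T-to-C converted reads per gene interval, introns included, as deposited by the authors. How strands were treated is not stated in those sources. Of 92 samples, 26 (12 RNA-seq and 14 SLAM-seq) were used, and 66 samples of other assays were not analysed here.

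Expected counts were rounded. Each assay was fitted once over all its groups with edgeR 4.0.16 (R 4.3.3): TMM scaling, filterByExpr (minimum count 10, minimum total 15), the quasi-likelihood test, and Benjamini-Hochberg adjustment over all genes tested. Calls have an adjusted p under 0.05. The fits kept 16396 genes (RNA-seq), 15887 (converted reads) and 26957 (all SLAM-seq reads), and were tested on simulated data. The standard error is the absolute log2 change over the square root of F. CPM are TMM-scaled. With 2 libraries a group, the spread is estimated over all groups of an assay. Symbols came from a gene name table that matched 52029 of 56953 IDs. Promoters came from RefSeq (GRCm38.p6), and were searched for letters only; no GRCm38.p6 coordinate was joined with an mm39 one.

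Every gene of the set may be named. Values per library are given for up to 8 called genes per direction whose groups do not overlap in each comparison with DMSO, for the 5 highest and 5 lowest levels, for Rpl5, Rpl11, Rplp0, Rplp1, Rplp2, Rps6 and Rpsa, for up to 5 genes per direction in each difference of responses, and for up to 4 genes of other lists. The members, lists and tests were chosen with earlier results of these data known. The alternatives were DESeq2 1.42.0, other scalings, other filters, pseudogene counts added, a replicate block, the libraries of 1 comparison alone and each library left out; the search for GGAAGT was added after seeing the data. Replicates of each group differed by more than sampling noise (chi-square per degree of freedom 1.88 to 28.3). A few genes of the set are not reported here by name; they stay in all counts and medians.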

Additional observations from a re-analysis of the deposited data

Results flagged for a closer look

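Differences between responses were tested within the edgeR fits. Both differences between lines share the GABPA-line libraries, so they are given side by side and not as independent of each other.

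The response to GABPA loss exceeded that to GABPB1 loss in 17 ribosomal protein genes and lay below it in 10. Over all genes these shares were 12.5% and 13.3%. Higher responses included Rpsa (0.53 on the log2 scale), Rplp0 (0.36) and Rpl26 (0.32). Lower responses included Rps27 (-1.41), Rpl37 (-1.29), Rps14 (-0.97), Rpl29 (-0.49) and Rpl34 (-0.42). Rpl26 was not called without DMSO library 2 of the GABPB1 line (adjusted p = 0.0675 by edgeR) or without its dTAG-13 library 1 (0.0685).

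Set against loss of GABPB1 and GABPB2, the response was higher in 11 genes and lower in 10 (10.1% and 10.7% of all genes). Rpsa (0.41), Rpl13a (0.38), Rpl12 (0.37) and Rpl27a (0.30) were higher, and of these Rpsa alone was called in each fit tried. Rpl37 (-1.18), Rps27 (-1.02), Rps14 (-0.88), Rps18 (-0.42) and Rpl29 (-0.41) were lower and were called in each fit.

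In new RNA, the response at 12 h was higher than at 1 h in 1 member, Rpl9 (1.04), when 2.14% of all genes were higher. It was lower in 2 members, Rps18 (-1.005) and Rpl4 (-0.68), when 4.7% of all genes were lower. None of these 3 was called in each fit.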

How the results depend on the processing

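In total RNA after GABPA loss, 23 members were called higher and 11 lower in each of 14 settings, and leaving out 1 library gave 28 to 36 higher and 11 to 13 lower. Among single genes named, the other alternatives kept the direction and the side of the threshold in 1103 cases, lost the call in 28, gained one in 11 and reversed 1: Rpl9 in all SLAM-seq reads, -0.048 (adjusted p = 0.775) with pseudogene counts added. Leaving out 1 library kept 518, lost 78 and gained 4.

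Counts of members moved as follows. A fit of the comparison's libraries alone gave 6 higher and 2 lower for GABPB1, when 1240 of 15696 genes were higher and 1947 lower. The same kind of fit gave 1 higher for GABPB1 and GABPB2 and 2 higher for GABPA minus GABPB1 and GABPB2. In SLAM-seq it gave 0 lower for new RNA at 2 h, 3 higher for 12 h minus 1 h and 5 higher for all reads. Library size alone gave 5 higher for GABPB1 and GABPB2, 6 higher for GABPA minus GABPB1 and GABPB2, 18 higher for new RNA at 12 h (69.2% of calls higher, against 36.8%), 1 lower for 12 h minus 1 h, and 29 higher and 7 lower for all SLAM-seq reads (80.6% against 13.04%). DESeq2's size factors in edgeR and DESeq2 each gave 5 higher for GABPB1 and GABPB2 and 0 lower for new RNA at 2 h. With no low-count filter, 6 were lower for GABPB1 and GABPB2, 18 higher for GABPA minus GABPB1 and GABPB2 and 3 higher for 12 h minus 1 h. A minimum average log2 CPM of 3 gave 32 higher for GABPA minus GABPB1, 25 higher for GABPA minus GABPB1 and GABPB2, and 24 higher and 7 lower for all SLAM-seq reads. Pseudogene counts gave 0 lower for new RNA at 2 h, 4 higher for new RNA at 12 h and 0 higher for 12 h minus 1 h. The longer letters CCGGAAGT were in 19.3% of members, against 42.1% for CCGGAAG. These settings differ in the samples, the genes tested, the scaling or the test; the cause of each move was not tested.

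With 1 library left out in turn, the counts ranged from 0 to 0 higher for GABPB1, 1 to 19 higher and 1 to 15 lower for GABPB1 and GABPB2 (19 higher without DMSO library 1, 15 lower without DMSO library 2), 4 to 22 higher and 10 to 12 lower for GABPA minus GABPB1, and 1 to 28 higher and 8 to 15 lower for GABPA minus GABPB1 and GABPB2. In new RNA they ranged from 1 to 2 lower at 1 h, 0 to 1 higher and 0 to 1 lower at 2 h, 0 to 3 lower at 4 h, 4 to 10 higher and 5 to 8 lower at 12 h, and 0 to 2 higher and 0 to 1 lower for 12 h minus 1 h. All SLAM-seq reads ranged from 1 to 5 higher and 13 to 19 lower.

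With a replicate block, 40 members were higher and 13 lower after GABPA loss and 4 higher and 23 lower in all SLAM-seq reads, and the other counts were those without it. Same-numbered libraries correlated in their deviations by -0.05 to 0.26, so the numbers were taken as shared numbers only.

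Limits: converted reads are few (12 and 25 for Rps27 at 1 h of dTAG-13), so single members at 1 to 4 h are measured with wide errors. Reads assigned to same-named pseudogenes are many in SLAM-seq, and their origin was not tested. The part of genes that overlap Rps18, Rpl35 and Rps14 in the counts of these members was not tested in either assay. Scaling sets the direction of small changes in all SLAM-seq reads.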
